A study of Mus musculus with 4 samples.

Results

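The regions described are the strong peaks of dimethylated lysine 79 of histone H3 (H3K79me2) that lay outside protein-coding genes in mouse thymocytes grown with an inhibitor of the desaturase SCD1. They were chosen by their deposited q and width, as the peaks of the inhibitor list with q of at most 0.05 and a width under 40 kb that overlapped no coding gene body of RefSeq. The rule found 265 such peaks, out of 5502 inhibitor peaks of that strength and width on chromosomes 1 to 19, X and Y, and out of 35018 inhibitor peaks in all. Another 5237 peaks of that strength and width lay over a coding gene. The control list was longer but weaker. It held 124962 peaks, of which 804 had q of at most 0.05, against 6528 of the 35018 inhibitor peaks. All comparisons with control peaks below, of any strength or at that q, depend on this difference between the whole lists.

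Both groups were double-negative thymocytes that developed from C57BL/6 haematopoietic stem cells on OP9-DL1, a stromal line carrying a Notch ligand, with Flt-3L and IL-7, and that were collected at the DN3 stage. The inhibitor group was grown with A939572, a blocker of SCD1, which converts stearate to oleate. The control group received DMSO. Each group had 1 chromatin immunoprecipitation (ChIP) library with an H3K79me2 antibody, and the 2 input libraries are not analysed here. The labels do not say whether cultures were pooled or whether stromal cells were removed. There is no replicate error, so no difference between the groups was tested, and the read depth is unknown. Intervals are 95% Wilson intervals over peaks and cover counting error only. The lists cannot tell fewer cells that carry the mark at a region from less of the mark per cell.

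H3K79me2 is placed by DOT1L, the only known methyltransferase for this residue, on nucleosomes behind elongating RNA polymerase II. It is densest over the 5′ part of transcribed genes, and non-coding genes made by the same polymerase can carry it as well. Many long non-coding RNA (lncRNA) genes are hosts of microRNAs or of small nucleolar RNAs (snoRNAs), which guide the modification of ribosomal RNA.

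Mature sequences of 15 microRNAs whose genes lie under these peaks are shown because 3 of their 10 seeds (bases 2 to 8, in capitals), the part that pairs with targets, are shared by several of them. Of 20 microRNA genes under 10 peaks, 19 had a mature sequence in the RefSeq tables, whose build is GRCm38.p6 (mm10). Arms are given 5′ to 3′.
mmu-let-7a-5p: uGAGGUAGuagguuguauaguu
mmu-let-7f-5p: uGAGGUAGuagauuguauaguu
mmu-let-7d-5p: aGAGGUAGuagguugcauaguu
mmu-let-7i-5p: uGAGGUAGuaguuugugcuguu
mmu-miR-17-5p: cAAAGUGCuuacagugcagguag
mmu-miR-20a-5p: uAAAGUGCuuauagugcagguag
mmu-miR-18a-5p: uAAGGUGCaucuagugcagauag
mmu-miR-19a-3p: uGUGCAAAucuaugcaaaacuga
mmu-miR-19b-3p: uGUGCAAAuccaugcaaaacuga
mmu-miR-92a-3p: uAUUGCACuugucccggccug
mmu-miR-23a-3p: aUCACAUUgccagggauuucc
mmu-miR-27a-3p: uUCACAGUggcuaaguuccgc
mmu-miR-24-3p: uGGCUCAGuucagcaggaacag
mmu-miR-31-5p: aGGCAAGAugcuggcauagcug
mmu-miR-101a-3p: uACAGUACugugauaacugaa
The 4 let-7 microRNAs share the seed GAGGUAG although they come from peaks on 2 chromosomes. Within the Mir17hg cluster, miR-17 and miR-20a share AAAGUGC, and miR-19a and miR-19b share GUGCAAA.

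The let-7 cluster on chromosome 13 (chr13:48532588-48547711, mm10) held the strongest microRNA peak. It covered Mirlet7d, Mirlet7f-1 and Mirlet7a-1 and overlapped no annotated lncRNA. In the inhibitor list this peak had a −log10 q of 23.0 and a fold enrichment of 6.06, and 1 control peak with a −log10 q of 5.26 covered 80.8% of it. The gene of a further family member, Mirlet7i (chr10:122979915-122990078), lay under an inhibitor peak with a −log10 q of 7.72, of which a control peak with q above 0.05 covered 33.1%. Both let-7 regions thus held a peak in each list, but only the one on chromosome 13 passed q of 0.05 in the control list. The control peak in the Mirlet7i region did not reach the mature let-7i sequences.

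Mir17hg, the host of a microRNA cluster that promotes proliferation and survival of lymphocytes, lay under a peak at chr14:115039330-115048965. Its −log10 q was 11.8 in the inhibitor list, and a control peak with a −log10 q of 1.54 covered 62.4% of it. The annotated gene body of Mir17hg was covered over 100% by inhibitor peaks and over 100% by control peaks. The cluster of Mir23a, Mir27a and Mir24-2 lay under a peak (chr8:84200145-84210643) 0.299 kb past the 3′ end of the coding gene Zswim4. This inhibitor peak had a −log10 q of 6.996, and weak control peaks covered 50.4% of it. Mir3074-2 is annotated on the opposite strand of the Mir24-2 hairpin, and a ChIP peak has no strand.

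The remaining microRNA genes lay under 6 peaks. Mir30d had a −log10 q of 4.27 and Mir31 one of 5.42 in the inhibitor list, with 87.4% and 58.2% of the peaks covered by weak control peaks. Mir1839 and Mir101a lay under peaks of which control peaks covered 18.6% and 10.6%. In each of these regions the only control peak lay outside the mature microRNA sequences. Mir6516, inside the Snhg20 gene, and Mir8096 lay under peaks without any control peak. Of the 10 peaks with a microRNA gene, 8 overlapped a control peak and 2 overlapped one at q of at most 0.05. These counts are of overlap with the inhibitor peak, not with the microRNA gene. Over all 265 peaks the shares were 64.5% and 4.15%. A wider peak could touch a control peak more easily, and the 10 were not matched for width. Of 396 microRNA genes outside coding genes, 5.05% lay under one of the 265 peaks.

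Long non-coding RNA genes were the most common annotation under the peaks. At least 1 lncRNA gene lay under 115 peaks, 43.4% of 265 (37.6 to 49.4). The share for other intervals outside coding genes was not computed, so whether 43.4% is high was not tested. When each peak was given to 1 class, 10 lay in an antigen receptor locus, 114 over a lncRNA, 8 over a small or miscellaneous RNA but no lncRNA, 21 over a pseudogene but none of these and 112 (42.3%) over no annotated gene. These classes differed in width and strength. An overlap of 1 bp was enough for a class, so a wider peak could touch a gene more easily. The median width was 7.61 kb for the lncRNA class and 4.65 kb where no gene was annotated, and the median −log10 q, which the rule used, was 2.73 and 1.98.

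**Figure D1:**
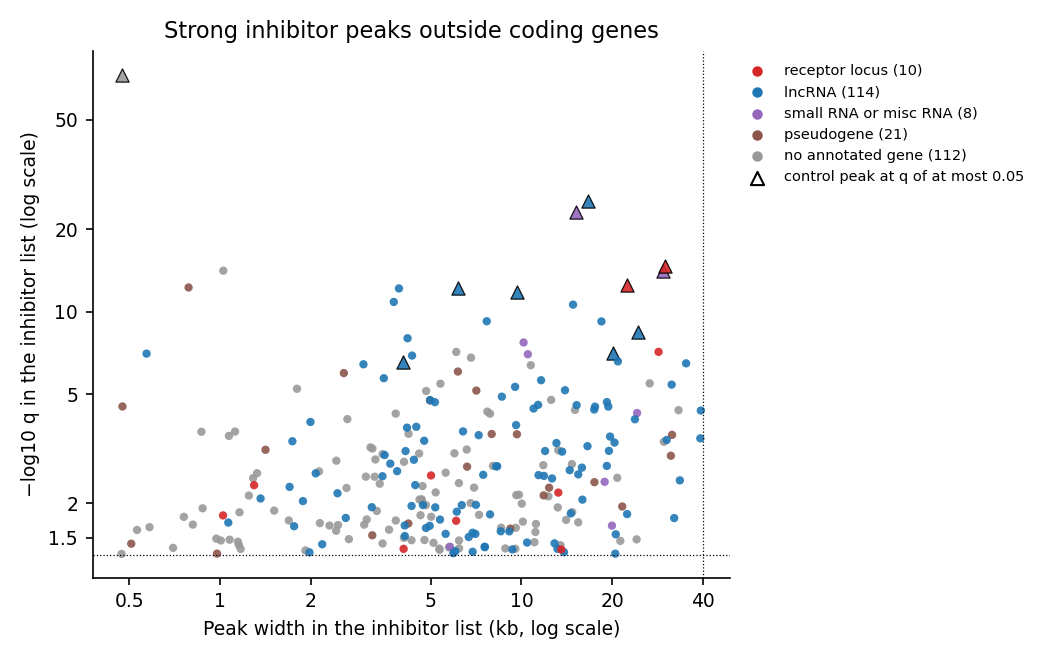
Width in kb (x, log scale) and −log10 q (y, log scale) of the 265 peaks in the inhibitor list, coloured by annotation; dotted lines mark the limits of the rule at 40 kb and q of 0.05. Triangles mark the 11 peaks that overlapped a control peak at q of at most 0.05, all of which had a −log10 q of at least 5 in the inhibitor list.

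Of 43 lncRNAs and other non-coding RNAs in a list of well-known genes, 39 were in the gene table and 32 of these lay outside coding genes. Among the 32, 11 held one of the peaks, and another 11 held a strong inhibitor peak that was too wide or reached a coding gene. The other 10 held no strong inhibitor peak: Snhg17, Snhg18, Xist, Tsix, Pvt1, H19, Rmrp, Rpph1, Terc and Rn7sk. In the control list, 20 of the 32 held a peak of any strength and 6 held one at q of at most 0.05. Xist, which silences an X chromosome in female cells, and its antisense gene Tsix held no peak in either list. Over all 8146 lncRNA genes outside coding genes, 1.55% lay under one of the peaks.

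Malat1, an abundant nuclear RNA of speckles, lay under the strongest lncRNA peak (chr19:5790392-5807044). In the inhibitor list the peak had a −log10 q of 25.4 and covered 100% of the gene. In the control list a peak of 6.09 kb with a −log10 q of 27.5 covered 87.2% of the gene. Malat1 was thus marked strongly in both lists, and the inhibitor peak was wider, at 16.7 kb. Its neighbour Neat1, the scaffold of paraspeckles, was covered over 99.9% by inhibitor peaks and 25.7% by control peaks. Peaks at q of at most 0.05 covered 13.5% of Neat1 in the control list. The strongest control peak there had a −log10 q of 9.60 and a fold of 2.91. The inhibitor peak had 8.41 and 2.96, so the lists differed in cover more than in peak strength.

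Norad, a cytoplasmic RNA that binds Pumilio proteins, was covered over 100% by inhibitor peaks and 90.3% by control peaks. The Norad peak (chr2:156387729-156393906) had a −log10 q of 12.2, against 1.49 for its control peak. Snhg5, a snoRNA host, was covered over 100% by inhibitor peaks and 82.2% by a control peak with a −log10 q of 1.34. Snhg3, another host, was covered over 100% by inhibitor peaks and 84.7% by a control peak with q above 0.05. These RNAs held a peak over most of the gene in each list.

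Dancr, the host of Snora26, was covered fully (100%) by inhibitor peaks and held no control peak (0%). Its inhibitor peak (chr5:74092465-74095960) had a fold of 3.18 and a −log10 q of 5.72. Snhg20 was likewise covered over 100% by inhibitor peaks and 0% by control peaks, with an inhibitor −log10 q of 3.55. Of the 11 listed genes that held one of the 265 peaks, these 2 had no control peak. The same held for 38 of all 126 lncRNA genes that lay under one of the peaks and overlapped no coding gene. All 11 held an inhibitor peak by choice, so their cover in the 2 lists is a description only. The hosts Snhg12 and Mir155hg, whose strong inhibitor peaks were not among the 265, were also covered over 100% by inhibitor peaks and 0% by control peaks.

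Among lncRNAs of the X chromosome, the X inactivation centre held 2 of the peaks. Jpx, an activator of Xist, was covered over 87.6% by inhibitor peaks and 21.6% by control peaks. Ftx was covered over 18.4% by inhibitor peaks and 5.44% by control peaks, with the inhibitor peak on the 5′ side of its midpoint. Firre, a nuclear RNA with repeated domains, was covered over 7.28% by inhibitor peaks and 2.46% by control peaks. No control peak at these 3 genes passed q of 0.05.

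**Figure D2:**
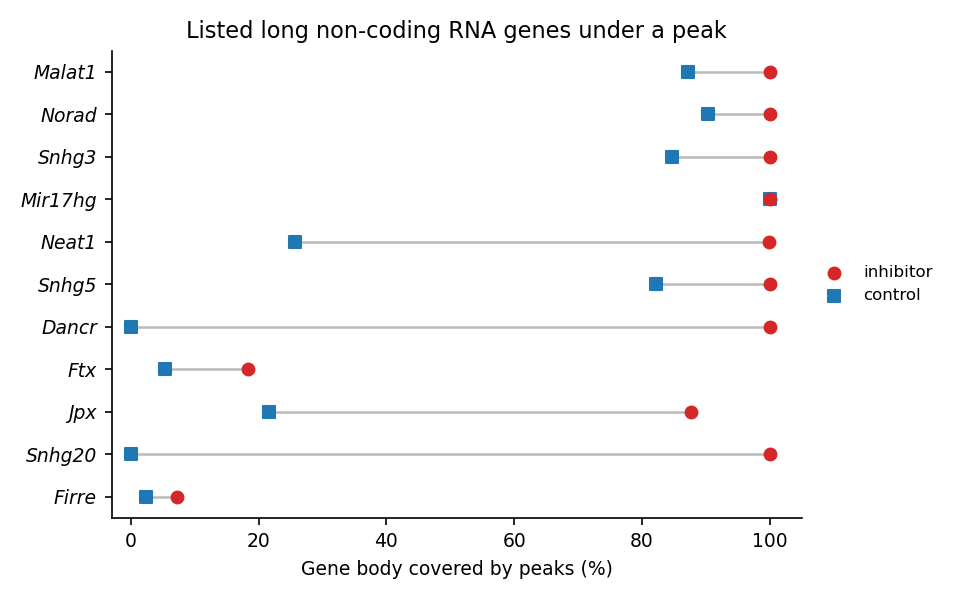
Percent of the gene body covered by peaks (x) in the inhibitor list (red circles) and in the control list (blue squares) for the 11 listed non-coding genes that held one of the peaks, ordered by −log10 q in the inhibitor list. Mir17hg was at 100% in both lists, and Dancr and Snhg20 were at 100% by inhibitor peaks and 0% by control peaks. All 11 genes held an inhibitor peak by choice.

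Of these genes, Malat1, Snhg3, Snhg5, Dancr, Snhg20, Mir17hg and Jpx had a known start under a peak. The promoters of the first 4 are shown as examples. Each runs from 250 bases before to 50 bases after the start (RefSeq, GRCm38.p6), 5′ to 3′ on the gene's strand. Capitals mark matches, on either strand, to 6 motifs. The ETS motif was searched as CCGGAAGT and the GC box as GGGCGG. For the TATA box the letters were TATAAA, and for the box named after its letters they were CCAAT. The cyclic AMP response element (CRE) was searched as TGACGTCA and the RUNX motif as TGTGGTT.
Malat1, chr19:5802623-5802922, minus strand: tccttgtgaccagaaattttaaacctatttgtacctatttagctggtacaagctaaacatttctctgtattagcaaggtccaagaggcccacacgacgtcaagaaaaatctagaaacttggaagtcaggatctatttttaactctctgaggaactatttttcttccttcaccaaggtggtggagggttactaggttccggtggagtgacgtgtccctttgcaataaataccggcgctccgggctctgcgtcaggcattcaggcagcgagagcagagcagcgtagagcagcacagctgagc
Snhg3, chr4:132353637-132353936, minus strand: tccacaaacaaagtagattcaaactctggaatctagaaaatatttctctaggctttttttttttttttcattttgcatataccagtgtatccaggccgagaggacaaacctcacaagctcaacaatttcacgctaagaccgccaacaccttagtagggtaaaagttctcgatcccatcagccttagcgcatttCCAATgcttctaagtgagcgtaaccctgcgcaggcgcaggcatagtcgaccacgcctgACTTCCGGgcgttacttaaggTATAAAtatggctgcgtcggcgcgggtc
Snhg5, chr9:88522848-88523147, minus strand: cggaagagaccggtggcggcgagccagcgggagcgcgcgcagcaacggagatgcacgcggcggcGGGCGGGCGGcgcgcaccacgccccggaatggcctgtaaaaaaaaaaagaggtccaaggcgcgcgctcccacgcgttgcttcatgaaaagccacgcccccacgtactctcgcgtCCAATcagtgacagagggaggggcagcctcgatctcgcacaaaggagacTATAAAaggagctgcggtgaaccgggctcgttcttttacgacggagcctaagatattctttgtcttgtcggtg
Dancr, chr5:74092810-74093109, plus strand: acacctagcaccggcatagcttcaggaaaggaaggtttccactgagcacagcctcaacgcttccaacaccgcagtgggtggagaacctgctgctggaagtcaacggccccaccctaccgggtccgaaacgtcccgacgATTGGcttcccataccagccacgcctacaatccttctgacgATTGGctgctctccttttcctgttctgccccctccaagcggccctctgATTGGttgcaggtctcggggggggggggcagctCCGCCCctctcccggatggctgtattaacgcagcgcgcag
Peaks covered all 300 bases at Malat1, Snhg5 and Dancr and 71 bases at Snhg3. Dancr held 3 CCAAT matches and 1 GC box, Snhg5 2 overlapping GC boxes, 1 CCAAT and 1 TATA match, and Snhg3 an ETS, a CCAAT and a TATA match. None of the 6 motifs was found in the Malat1 window, which says nothing of the factors that bind there.

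Over all lncRNA genes outside coding genes, 79 promoter windows of 70 genes had their start under a peak. Their median GC content was 49.3%, against 47.3% for the other 7366 lncRNA windows outside coding genes and 56.3% for coding gene windows. The GC box was in 29.1% of the 79 windows, in 12.9% of the other lncRNA windows, in 46.2% of coding windows and in 35.7% of all windows in the table. The ETS motif was in 6.33%, 1.33%, 5.15% and 3.89% of these sets in that order, which is 5 windows of the 79. The CCAAT box was in 35.4%, 37.97%, 38.2% and 37.4%. The TATA motif was in 17.7%, 17.1%, 12.6% and 13.6%, the CRE in 2.53%, 0.95%, 2.23% and 1.79%, and the RUNX motif in 7.59%, 6.39%, 4.71% and 5.27%. By these descriptive shares, the lncRNA starts under peaks lay between other lncRNA starts and coding starts in GC content and GC box share.

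Counting the 265 peaks alone, more lncRNA genes were covered mainly on the 5′ side than on the 3′ side. Strand was known for 100 of the 126 lncRNA genes that lay under a peak and overlapped no coding gene. In 48 of the 100 these peaks covered more of the 5′ side of the gene's midpoint, in 16 more of the 3′ side, and in 36 the same, with medians of 100% and 77.3%. Of the 100, 47 were at least 10 kb long. In 31 of the 47 the peaks covered more of the sequence on the 5′ side of the gene's midpoint, in 13 more of that on the 3′ side, and in 3 the same. The median covered share of the 47 was 59.2% on the 5′ side and 17.5% on the 3′ side. The gap was smaller when all inhibitor peaks were counted, with medians of 66.3% and 52.1%, more cover on the 5′ side in 28 genes and more on the 3′ side in 16. Control peaks covered a median of 18.5% and 11.1%, with 27 and 14 genes. By the 265 peaks, Mirt1 was covered over 100% on the 5′ side and 8.61% on the 3′ side, the same as by all inhibitor peaks. Gm12216 was covered over 81.3% and 0% by the 265 peaks, but over 91.9% and 80.1% by all inhibitor peaks. Gm14636 on chromosome X went the other way, with 0% on the 5′ side and 29.4% on the 3′ side. Among the 93 peaks over a lncRNA with a known start, 59 contained such a start (63.4%, 53.3 to 72.5). This last count also includes lncRNA genes that overlap a coding gene.

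**Figure D3:**
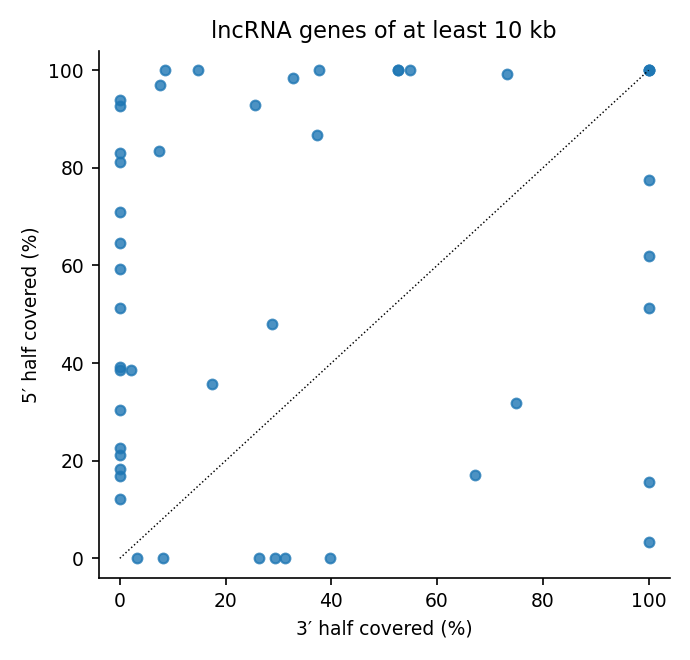
Percent of the sequence on the 3′ side (x) and on the 5′ side (y) of the gene's midpoint that the 265 peaks alone covered. Shown are the 47 lncRNA genes outside coding genes of at least 10 kb with a known strand. Each point is 1 gene and the dotted line marks equal cover. Above the line lie 31 genes and below it 13.

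Of the 126 lncRNA genes, 112 were covered more by inhibitor peaks, 11 more by control peaks and 3 equally. Among those covered more by control peaks, Gm33669 was covered over 18.7% by inhibitor peaks and 47.7% by control peaks. Of the 126, 90 were covered over at least 50% of the gene by inhibitor peaks and 14 by control peaks, and the median covered share was 83.6% by inhibitor peaks and 15.1% by control peaks. No control peak touched 38 of them. All 126 held an inhibitor peak by choice, so this comparison is a description only. Over all 8146 lncRNA genes outside coding genes, 4.08% were covered over at least 50% by inhibitor peaks and 2.50% by control peaks, while 8.99% were covered more by inhibitor peaks and 33.9% more by control peaks.

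The antigen receptor loci, whose V, D and J segments are joined by recombination in developing lymphocytes, held 10 of the peaks. The table lists these segments apart from coding genes. Of the 10, 6 lay in Tcra, which encloses Tcrd, 2 in Tcrb and 2 in Igh. None lay in Tcrg, Igk or Igl. A further 5 strong peaks outside coding genes over a receptor locus were 40 kb or wider and so not among the 265.

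The strongest receptor peak covered 2 D segments and 1 J segment of Tcrd, the locus of the TCR delta chain. This peak (chr14:54101535-54131549) spanned Trdd1, Trdd2 and Trdj1 and the start of the lncRNA Gm30275. It had a −log10 q of 14.7 in the inhibitor list, and control peaks covered 58.5% of it, the strongest with a −log10 q of 14.2. The next one (chr14:54136138-54158488) spanned Trdj2, the constant region Trdc, Trdv5 and the first Traj segments. Its −log10 q was 12.5 in the inhibitor list, and control peaks, the strongest at 2.20, covered 40.7% of it. Another, narrow peak of 1.02 kb lay between them and overlapped no control peak. Control peaks with q of at most 0.05 overlapped Trdd2, Trdj1, Trdj2 and Trdc, and no control peak overlapped Trdd1, Trdv5 or the Traj segments under these peaks.

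The other receptor peaks were weaker or absent in the control list. In Tcrb, the beta chain locus, a peak of 28.5 kb over Trbv2 to Trbv6 (chr6:41044723-41073203) had a −log10 q of 7.14, and weak control peaks covered 23.5% of it. The V segments of Tcra lay under 3 peaks, at Trav13n-4, at Trav14-2 and Trav15-2-dv6-2, and at Trav13-5 and Trav17, with −log10 q between 1.36 and 2.53. Weak control peaks covered 0%, 28.5% and 11.8% of these peaks. In Igh, the immunoglobulin heavy chain locus, 1 peak covered Ighm and 1 lay among the V segments without touching an annotated one. Their −log10 q was 1.73 and 2.33, and neither overlapped a control peak.

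Over whole loci, peaks of any strength covered 6.77% of Tcra in the inhibitor list, against 19.4% in the control list. Tcrd was covered over 39.5% by inhibitor peaks and 31.4% by control peaks. Tcrg was covered over 93.0% by inhibitor peaks and 82.2% by control peaks, by peaks of which those at q of at most 0.05 covered 90.7% and 65.4%. Tcrb was covered over 36.6% by inhibitor peaks and 37.7% by control peaks, but over 33.8% and 5.52% by peaks at that q. Igh was covered over 0.899% by inhibitor peaks and 27.1% by control peaks, where no peak passed. Igk and Igl held no strong peak in either list.

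Most of the 265 peaks (70.2%) lay within 50 kb of a coding gene, but few were next to one. The median distance to the nearest coding gene was 24.1 kb, with quartiles at 8.035 and 57.0 kb and a range of 0.017 to 1064 kb. Within 1 kb lay 9 peaks, within 5 kb 45 (17.0%, 12.9 to 21.97) and beyond 100 kb 38 (14.3%). Where the strand of the nearest gene was known, 106 of 198 peaks (53.5%, 46.6 to 60.3) lay on its 5′ side, and within 5 kb 17 of 33 did. The sides were thus about even.

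**Figure D4:**
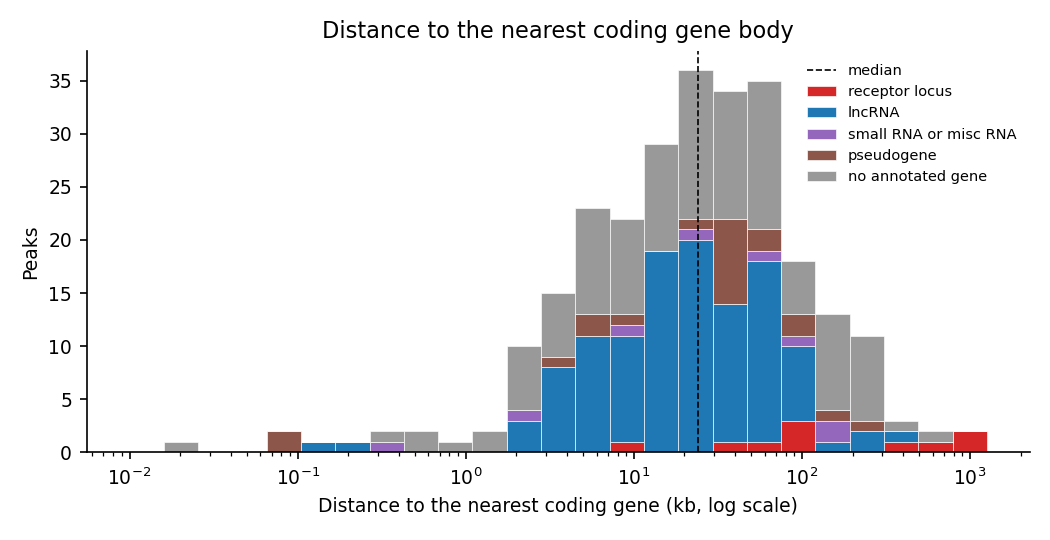
Number of peaks (y) by distance in kb to the nearest coding gene body (x, log scale), stacked by annotation; the dashed line marks the median of 24.1 kb. Receptor locus peaks reach the largest distances, up to 1064 kb in Igh.

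The nearest coding gene often carried the mark itself. It held a strong inhibitor peak for 159 of the 265 peaks (60%, 54.0 to 65.7), against 34.7% of all 21887 coding genes. It held a strong control peak for 61 peaks (23.0%, 18.4 to 28.5), against 3.92% of all coding genes. The shares for the 265 count peaks, so a gene nearest to several peaks counts more than once. The genes were not matched for length, and the difference was not tested. The share with a strong inhibitor peak was 46.7% for peaks within 5 kb, 69.3% from 5 to 20 kb, 62.6% from 20 to 100 kb and 50% beyond 100 kb. For 24 peaks the nearest other strong peak lay within 5 kb and over a coding gene.

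The peaks had 239 distinct nearest coding genes, 1.09% of all. Of 53 genes of a T-lineage list, 3 were nearest to a peak (5.66%). None of the 15 OP9 stroma, 9 B cell, 11 myeloid, 9 natural killer and innate lymphoid or 9 erythroid and megakaryocyte markers was. Over their own gene bodies, 39 of the 53 T-lineage genes held a strong inhibitor peak and 20 a strong control peak. For the stromal, B cell, myeloid, natural killer and erythroid lists the inhibitor counts were 2, 1, 3, 2 and 2, and the control counts 0, 0, 0, 0 and 1. Over all 21887 coding genes, 34.7% held a strong inhibitor peak and 3.92% a strong control peak. The gene Id2 is in both the T-lineage and the natural killer list.

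Myb, a transcription factor that thymocyte precursors need, had 2 peaks on its 5′ side. They began 22.4 kb (chr10:21183390-21200926) and 55.5 kb (chr10:21216478-21223358) from the gene and lay over the lncRNAs Gm40608, Gm33619 and Gm33671. Their −log10 q was 4.51 and 1.56 in the inhibitor list, and weak control peaks covered 23.4% and 30.1% of them. A further peak of 33.5 kb at chr10:21224836-21258338 missed the limit with a −log10 q of 1.29. Bcl2, which encodes an inhibitor of apoptosis, had a peak of 19.7 kb starting 9.08 kb past its 3′ end, with a −log10 q of 3.51, of which weak control peaks covered 13.5%. Cxcr4, a chemokine receptor of early thymocytes, was the nearest gene of a peak 237 kb away with a −log10 q of 1.48.

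The share of peaks that overlapped the control list rose with the width of the peaks. Any overlap counted and the control list held 124962 peaks, so a wider peak could touch a control peak more easily. The overlap of other intervals of the same widths was not computed, so whether the shares below are high was not tested. Of the 265 peaks, 171 (64.5%, 58.6 to 70.0) overlapped a control peak, against 76.1% of all 5502 peaks of that strength and width and 40.6% of all inhibitor peaks. Over coding genes the share was 76.7% (75.5 to 77.8), but these peaks were wider, with a median of 11.7 kb, against 6.15 kb outside coding genes. Under 2 kb, 33.3% of the peaks outside coding genes (21.01 to 48.4) and 16.1% of those over them (11.5 to 22.2) overlapped a control peak. From 2 to 5 kb the shares were 50% and 44.1%, from 5 to 10 kb 59.1% and 68.6%, and from 10 to 20 kb 93.1% and 88.3%. From 20 to 40 kb all 29 peaks outside coding genes and 98.7% of those over them did. Neither kind was higher at every width.

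**Figure D5:**
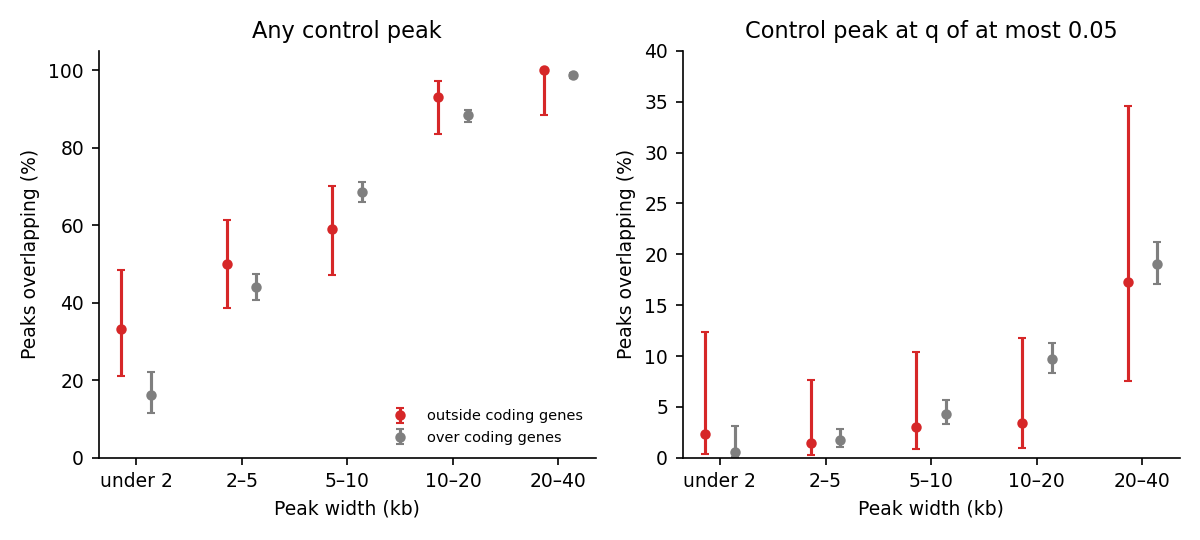
Percent of peaks (y) that overlapped any control peak (left) or a control peak at q of at most 0.05 (right), by width in kb (x), for the 265 peaks outside coding genes (red) and the 5237 over coding genes (grey), with 95% Wilson intervals. The share that overlapped any control peak was 33.3% under 2 kb and 100% from 20 to 40 kb outside coding genes. A wider peak could touch a control peak more easily, and the share for other intervals of these widths was not computed.

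Only 11 of the 265 peaks (4.15%, 2.33 to 7.28) overlapped a control peak at q of at most 0.05, against 9.03% of all 5502. The whole control list held 804 peaks at that q. Over coding genes the share was 9.28%. All 11 had a −log10 q of at least 5 in the inhibitor list, where they made up 26.2% of 42 peaks (15.3 to 41.1), close to the 24.7% of such peaks over coding genes. Below that strength none of the peaks outside coding genes did, of 108, 58 and 57 peaks with a −log10 q under 2, 2 to 3 and 3 to 5. The 11 lay at Malat1, Neat1, Norad, Mir17hg, Snhg5, the let-7 cluster, 2 places in Tcrd, Gm8995 (chr7:106501844-106531390), AI662270 near Slfn3 (chr11:83222095-83242194) and the start of chromosome 9. Another 160 peaks overlapped weak control peaks alone, and 94 overlapped none. The median share of a peak's length under control peaks was 14.4%, against 20.8% over coding genes.

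The region on chromosome 9 (chr9:3024068-3024541) stood apart. It had the highest −log10 q of the 265 peaks, 73.1, with a fold of 1.33, the lowest of all 35018 inhibitor peaks. A control peak with a −log10 q of 105.6 and a fold of 1.33 covered it fully, which is the highest −log10 q of the control list. It is 0.474 kb wide and 311 kb from the nearest coding gene, Alkbh8.

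Narrow peaks with high fold also occurred. The peak with the highest fold of the 265, 6.14, was 1.03 kb wide, overlapped no annotated gene and lay 679 kb from Pot1a (chr6:26488481-26489506). The peak over the pseudogene Gm2058 (chr7:39588931-39589717) had a fold of 5.38 and a width of 0.787 kb. Neither overlapped a control peak. On chromosome 8, 9 peaks lay between 19 and 21 Mb, several over the pseudogenes 6820431F20Rik and 2610005L07Rik, and all 9 overlapped a control peak. Near-identical gene copies are known in this region, so the place of these peaks is uncertain.

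Most of the widest peaks lay over lncRNAs. The widest, 39.3 kb over Gm4827 and Gm32101 (chr16:50033668-50073005), had a −log10 q of 4.36, and weak control peaks covered 44.6% of it. The next, 39.2 kb over Gm35189 (chr12:77034315-77073504) on the 5′ side of Max, the partner of Myc, had weak control peaks over 6.12% of its length. At Zfp217 a peak of 33.5 kb over Gm34403 and Gm17619 had control peaks over 5.86%. The widest peak without an annotated gene, 33.2 kb, lay 78.0 kb past the 3′ end of Kdr (chr5:75821631-75854811), with weak control peaks over 31.3% of it. No control peak at these 4 places passed q of 0.05.

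Of the 265 peaks, 58 lay within 100 kb of another one, in 27 groups. A group of 3 peaks spanned 86.6 kb between Katnal1 and Hmgb1 on chromosome 5, with the lncRNA Gm15411 under 2 of them. Another group of 3 spanned 33.4 kb on chromosome 7, with Chd2 as the nearest coding gene, and another was the Tcrd group above. The share of strong peaks under 40 kb that lay outside coding genes was 2.39% on chromosome 9, the lowest, 9.57% on chromosome 12, the highest of the autosomes, and 6.80% on chromosome X.

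At the limits of the rule, the weakest peaks inside had a −log10 q of 1.31 and the strongest ones outside 1.287 to 1.297. The widest inside were 35.2 to 39.3 kb, and the narrowest ones beyond the width limit 41.2 to 44.9 kb, among them peaks at chr13:19155003-19196229, which reaches Tcrg, and at chr6:41187334-41231545 in Tcrb.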

How the data were processed

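H3K79me2 ChIP-seq peak lists of 2 libraries were used, 1 inhibitor and 1 control. BWA, MACS2 2.1.0 and mm10 are named, without roles, in the submitters' processing notes. Peaks were deposited separately for each library. Each deposited peak has a fold (a ratio to local background), −log10 p and −log10 q values, the authors' own, read by the broadPeak format's column order, and a deposited score that is 10 times −log10 q cut to an integer. The lowest deposited −log10 p is 1.00. The sources used here do not give caller options, filters or the use of the inputs.

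Peaks were intersected by at least 1 bp with the RefSeq gene table of GRCm38.p6 (21887 nuclear coding genes used, 13 mitochondrial ones left out) in Python 3.11.15 with numpy 2.4.6, pandas 2.3.3 and scipy 1.17.1. The gene table holds no strand; strand and starts came from the promoter table, which covers 17492 coding genes. The functions were tested on simulated peaks. The peaks, lists and rules were chosen with earlier results of these data known. Regions were named for strength, width, distance, receptor loci, listed non-coding genes, T-lineage neighbours or a strong control peak.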

Additional observations from a re-analysis of the deposited data

How the results depend on the processing

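No replicate or read depth bounds these values, and no paired analysis was possible because each group had 1 library. Of 76 values recomputed under other settings, 51 stayed within the interval or 1.5 times of the main value. With −log10 q of at least 2, there were 157 peaks, 6 in receptor loci, and the median width was 7212 bp. With −log10 q of at least 5, there were 42 peaks, 3 of them in receptor loci. Of these, 80.95% overlapped a control peak and 26.2% a strong one, 11.9% lay within 5 kb of a coding gene and 54.8% over a lncRNA, with a median width of 8599 bp and 29.2% of the length under control peaks. With a fold of at least 3 and q of at most 0.05, the 33 peaks left had 72.7% over a control peak, 21.2% over a strong one, 54.5% over a lncRNA, 3 in receptor loci, a median distance of 18973 bp, a median width of 9526 bp and 34.5% of the length under control peaks. When control peaks had to cover at least 50% of a peak, the shares were 11.3% for any and 1.89% for strong control peaks. When lncRNA bodies had to cover 50% of a peak the share was 32.1%, and it was 36.1% when coding genes with predicted names were not counted as coding. Within 1 kb and 10 kb of a coding gene lay 3.40% and 28.3%. Lifting the width limit gave 279 peaks and 15 in receptor loci, against 10 with it. Merging peaks within 1 kb left every main value unchanged, so its values, which are among the 51, check nothing. Extending genes by 1 kb moved no share or median past its interval. Neither did leaving out the 9 peaks at 19 to 21 Mb of chromosome 8 and the lowest-fold peak, an alternative chosen after seeing the data.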

Other observations

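Other neighbourhoods were picked after their values had been seen. The snoRNA genes outside coding genes gave 9 under 6 peaks, 1.03% of 878. Besides Snhg3, Snhg5 and Dancr, these were 1110038B12Rik with Snord52 near the heat shock gene Hspa1b, 2700038G22Rik with Snord93, and a region on chromosome 7 with Gm22372. At 1110038B12Rik (chr17:34949515-34953704) the −log10 q was 8.001 in the inhibitor list and 0.695 for the strongest control peak, and control peaks covered 24.0% of the region. On chromosome 6, 3 peaks lay near the lectin receptor genes Clec2f, Klrb1f and Clec2d (chr6:128991794-129005624, chr6:129030916-129044162 and chr6:129207953-129243112), with −log10 q of 1.33, 3.12 and 6.48 and weak control peaks over 42.5%, 29.4% and 49.9% of their length. On chromosome 13, a peak of 3.83 kb lay 0.473 kb from the histone gene H3c3 and one of 0.759 kb lay 1.03 kb from H1f5. Neither overlapped a control peak.

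A strong inhibitor peak of 11871 bp on an unplaced contig had a fold of 2.06 and a −log10 q of 3.14. It was not classed, because no coding genes of that contig were used here.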
